A study of Mus musculus with 12 samples.

Results

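Transcript levels of 10 genes of the heat shock response and of the small chaperones of muscle were taken from 12 arrays of mouse gastrocnemius, the large calf muscle. The genes were chosen by name, and all 10 were found, each on 1 probe set, among 23185 named genes. They are Hspa1a, Hspa1b, Hspa8, Hsp90aa1, Hsph1, Dnajb1, Hspb1, Hspb7, Cryab and Bag3. All mice carried the strain BKS.Cg-Dock7m +/+ Leprdb/J, known as db/db, which lacks a working leptin receptor and becomes obese and diabetic. They were 12 weeks old and were killed 1 week after injection of adenovirus coding for short hairpin RNA (shRNA), which directs the breakdown of a target transcript. The targets were TSC22D4, a transcriptional regulator, and LCN13, a secreted lipocalin. Control shRNA mice received 4e9 plaque-forming units of control virus. LCN13 shRNA mice received 2e9 of LCN13 virus with 2e9 of control virus, and TSC22D4 shRNA mice 2e9 of TSC22D4 virus with 2e9 of control virus. TSC22D4+LCN13 shRNA mice received 2e9 of each target virus without control virus. Arrays were run for 3 of the 7 treated animals of each group, picked by the submitters as representative and called here by their animal numbers (control 18, 19 and 20, LCN13 21, 22 and 23, TSC22D4 25, 26 and 27, both viruses 29, 30 and 32). Pieces of whole muscle were measured, so the RNA of fibres, connective tissue and blood was mixed.

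Chaperones bind unfolded proteins and help them to fold, to be held soluble or to be handed on for breakdown. In the cytosol an HSP70 protein works in cycles with a J-domain partner, which brings the client, and an exchange factor, which releases it, and passes some clients to HSP90. When proteins misfold, the transcription factor HSF1 is freed, binds heat shock elements built of alternating GAA and TTC units, and raises the inducible members within hours. Striated muscle keeps a further set at high level under normal conditions, the small heat shock proteins, which bind desmin, filamin and titin at the Z-disc, where BAG3 ties them to HSP70 and to autophagy of damaged filament proteins.

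Values are log2 levels after RMA, a method that corrects background, makes the distributions of all arrays equal and summarises the probes of a set, so a difference of 1 is a doubling. Levels lay between 4.78 and 14.09 with a median of 5.45 on each array, and levels of different genes are not compared because probe sets differ in brightness. All 10 fibre markers (Acta1, Ckm, Myh1, Myh2, Myh4, Tnnt3, Tnni2, Mylpf, Pvalb and Mb) were at or above the 98.9th percentile of genes on every array, which fits the labelled tissue. The targets themselves did not separate the groups. Tsc22d4 read 6.43 to 7.01 over the 12 arrays and was not lower in mice given TSC22D4 virus. Obp2a, the symbol for LCN13, read 4.90 to 4.97, near the lowest level of the arrays. The targeted transcripts therefore give no check of the group labels in this muscle, and every direction given below is between arrays as labelled, by the virus the mice received. Differences between groups were tested with limma over all 12 arrays, adjusted by Benjamini-Hochberg over all 23185 genes, with an adjusted p under 0.05 as the threshold for passing. All later adjusted p-values are from this fit unless another is named.

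One stretch of DNA is shown for each of the genes around which the results turn, since heat shock elements define the inducible class. RefSeq promoter windows on GRCm38.p6, from 250 bases before to 50 after the start, were present for 7 of the 10 genes. Hspa8, Hsp90aa1 and Cryab had no entry. The windows were searched for GAANNTTC and TTCNNGAA, which pair a GAA with a TTC unit. Each of these motifs is its own reverse complement, so a match on one strand is a match on both. Hspb1 is shown first because it was the member that passed a comparison between groups. The 250 bases before its start lie at chr5:135887669-135887918 on the plus strand, with the 2 motif matches in capitals.
Hspb1: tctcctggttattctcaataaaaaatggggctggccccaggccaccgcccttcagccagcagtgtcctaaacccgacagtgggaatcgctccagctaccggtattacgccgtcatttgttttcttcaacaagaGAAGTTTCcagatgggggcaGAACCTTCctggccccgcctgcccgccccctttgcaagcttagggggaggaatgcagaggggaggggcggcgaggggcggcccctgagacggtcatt
The matches began 117 and 97 bases before the start. Hspa1a and Hspa1b, the inducible HSP70 pair, are shown because they are near copies of each other. Their stretches lie at chr17:34972157-34972406 and chr17:34959239-34959488, both on the minus strand and both written in the direction of transcription.
Hspa1a: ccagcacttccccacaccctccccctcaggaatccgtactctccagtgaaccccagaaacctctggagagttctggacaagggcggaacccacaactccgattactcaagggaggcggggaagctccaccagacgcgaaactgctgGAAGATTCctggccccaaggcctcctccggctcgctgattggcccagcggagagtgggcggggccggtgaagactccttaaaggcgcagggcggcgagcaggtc
Hspa1b: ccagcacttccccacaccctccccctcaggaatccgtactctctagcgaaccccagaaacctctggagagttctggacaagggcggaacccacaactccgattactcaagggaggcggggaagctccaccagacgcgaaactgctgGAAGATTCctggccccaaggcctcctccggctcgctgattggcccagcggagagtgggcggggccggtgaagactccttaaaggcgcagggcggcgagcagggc
The pair was identical at 247 of 250 bases (98.8%), and both held 1 match 104 bases before the start. Bag3 is shown because it separated the arrays by TSC22D4 virus, in a stretch of 30 bases at chr7:128523603-128523632 on the plus strand whose match began 43 bases after the start.
Bag3: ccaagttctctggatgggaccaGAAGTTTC

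Of the 7 genes with a window, 5 held at least 1 match, namely Hspa1a, Hspa1b, Hsph1, Hspb1 and Bag3. Dnajb1 and Hspb7 had none in these letters and this window. Over all 32851 RefSeq windows of 300 bases, 15.1% held either motif, 7.86% held GAANNTTC and 8.52% held TTCNNGAA. The Hsph1 window held 3 units in a row, TTCTGGAAAGTTC, in which a match of each motif shares the middle GAA. Such a run of TTC, GAA and TTC units, each pair parted by 2 free bases, was found in 0.32% of all windows. A match is a description of the letters and is not evidence of binding.

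The small chaperone Hspb1, also called HSP25 in mice, stabilises actin filaments and holds unfolded proteins. It was the member that differed between groups by the test. Its log2 level was 8.90, 8.83 and 8.80 in control animals 18, 19 and 20, and 9.53, 9.59 and 9.11 in animals 29, 30 and 32 given both target viruses. The ranges did not overlap, and animal 32 lay closest to the controls. The share of all genes whose ranges part groups of 3 arrays in this way was not counted. The mean was 9.41 ± 0.264 (SD, n = 3) with both viruses and 8.84 ± 0.0523 (SD, n = 3) in controls, a difference of 0.57 (SE 0.12, 95% interval 0.30 to 0.83), or 1.48-fold, with an adjusted p of 0.0325 by limma. In bulk tissue, more cells of a type and more RNA per cell cannot be told apart.

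This was 1 of 10 members that passed in the comparison of both viruses with control, where 4.34% of all genes passed and 1.72% passed as higher. The call did not hold in every fit. It was lost in 5 of 12 fits that left out an array, those without control 18 (limma adjusted p = 0.0694), 19 (0.0824) or 20 (0.102) and without animal 29 (0.0777) or 30 (0.0689), while the difference stayed between 0.47 and 0.72. With the arrays of these groups alone it was 0.57 with an adjusted p of 0.117.

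Animals given LCN13 virus alone had Hspb1 levels of 9.47, 9.27 and 9.31. Those given TSC22D4 virus alone had 9.01, 9.05 and 8.79, the last just below the controls and the other two above them. LCN13 shRNA exceeded control by 0.51 (adjusted p = 0.101) and TSC22D4 shRNA exceeded control by 0.11 (adjusted p = 0.884), both short of the threshold. Comparisons with control share the same 3 control arrays.

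The level of Hspb1 thus followed the LCN13 virus array by array. Every one of the 6 arrays with LCN13 virus, at 9.11 to 9.59, lay above every one of the 6 without it, at 8.79 to 9.05. Among all genes 0.302% (70) separated the arrays in this way. A contrast added after the levels were seen averaged over the presence and absence of TSC22D4 virus, 6 arrays against 6. In it Hspb1 was 9.38 ± 0.182 (SD, n = 6) with LCN13 virus and 8.90 ± 0.11 (SD, n = 6) without, a difference of 0.48 (SE 0.0846, 95% interval 0.29 to 0.67), 1.40-fold, with a limma adjusted p of 0.0439, where 0.617% of all genes passed. Of 12 fits that left out an array, 11 gave an adjusted p above 0.05, up to 0.112 without control 20, and the fit without animal 32 gave 0.0174. The difference was 0.44 to 0.56 in them. The amount of control virus also differs in this average, and its part was not tested. The single-virus groups received equal amounts of control virus and differed in both target viruses. Between them Hspb1 was 0.40 higher with LCN13 than with TSC22D4 virus (TSC22D4 minus LCN13 shRNA -0.40, 95% interval -0.66 to -0.13). The limma adjusted p was 0.175, which did not pass.

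**Figure D1:**
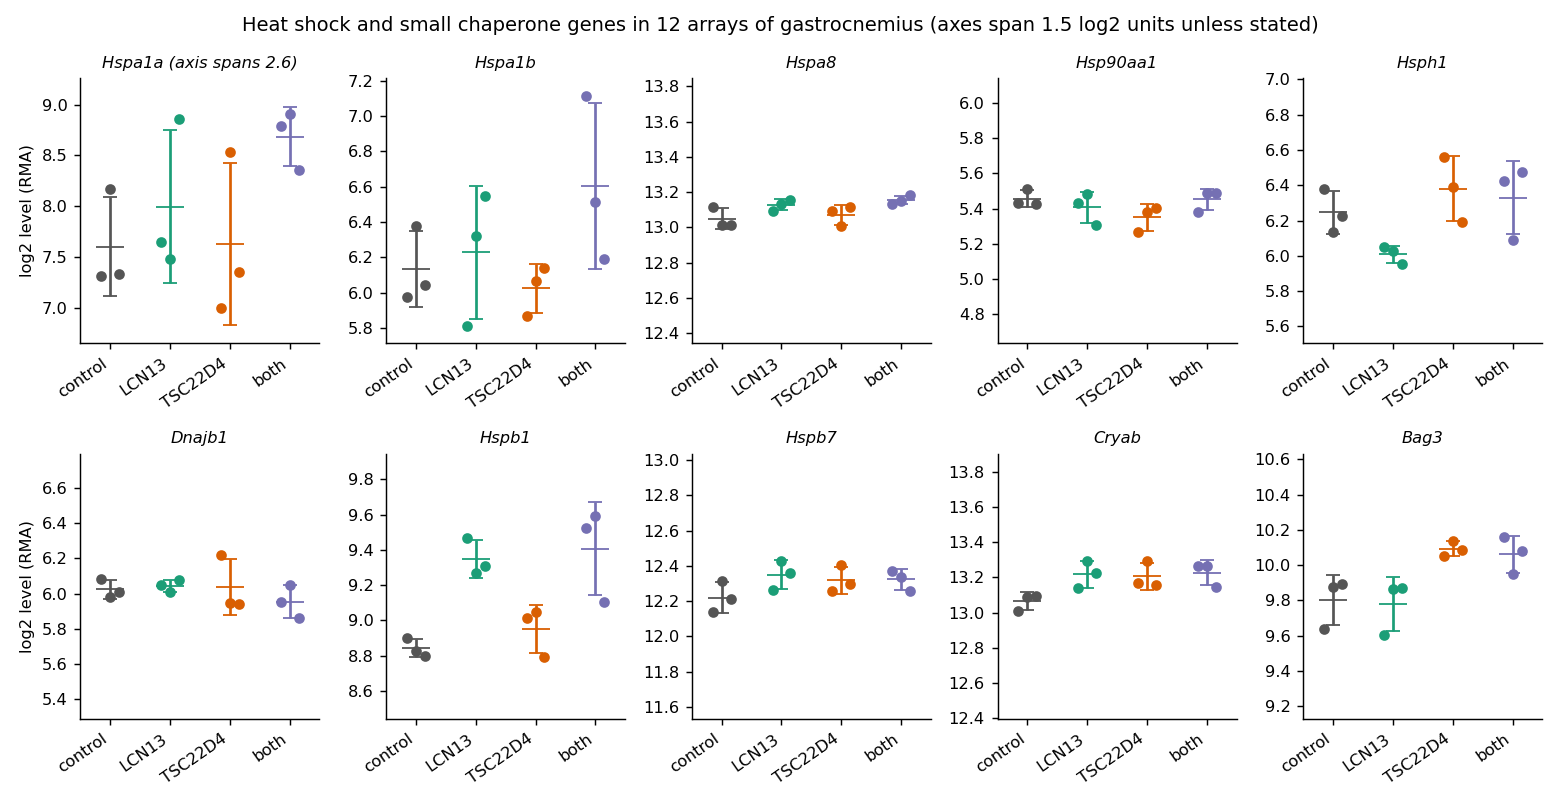
Log2 level after RMA (vertical axis) of each of the 10 genes on 12 arrays, by shRNA group (horizontal axis; both, TSC22D4+LCN13 shRNA). Points are arrays and bars are the mean and SD of 3. Hspb1 lies at 9.11 or above on the 6 arrays with LCN13 virus and at 9.05 or below on the other 6, and Hspa1a spreads from 7.00 to 8.91.

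Levels of markers of other cells also differed between arrays of these groups. The 12 fibroblast and tendon markers, all measured, had a mean deviation from their 12-array mean of -0.96 to -0.03 in controls, 0.10 to 0.38 with LCN13 virus, -0.32 to 0.31 with TSC22D4 virus and -0.02 to 0.58 with both. Their mean log2 level was 9.03 to 9.96 in controls and 9.96 to 10.56 with both viruses. None of the 12 passed in any comparison, and control 19 (-0.03) lay level with animal 29 (-0.02). With this score as a covariate, Hspb1 with both viruses exceeded control by 0.65 (limma adjusted p = 0.205), and the average over 6 against 6 was 0.53 (adjusted p = 0.453).

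Red cell markers, of which 3 of 6 were measured (Hbb-b1, Alas2 and Slc4a1), deviated by -0.69 to -0.10 in controls, -0.65 to -0.52 with LCN13 virus, -0.14 to 0.49 with TSC22D4 virus and 0.34 to 1.42 with both. Of these 3, 2 passed as higher with both viruses against control, where 1.72% of all genes did. With the red cell score as a covariate Hspb1 with both viruses exceeded control by 0.38 (limma adjusted p = 0.459), and the 6 against 6 difference was 0.45 (adjusted p = 0.0396). With a slow fibre score as a covariate these were 0.56 (adjusted p = 0.0472) and 0.47 (adjusted p = 0.0636). Macrophage and leukocyte markers, 7 of 8 measured, deviated by -0.21 to -0.08 in controls, -0.21 to 0.06 with LCN13 virus, -0.06 to 0.03 with TSC22D4 virus and 0.07 to 0.58 with both. Of these 7, Mrc1 (0.81, adjusted p = 0.02) and Adgre1 (0.49, adjusted p = 0.0405) rose with both viruses against control. With this score as a covariate Hspb1 with both viruses exceeded control by 0.39 (limma adjusted p = 0.286) and the 6 against 6 difference was 0.41 (adjusted p = 0.189). Schwann and nerve markers, 3 of 5 measured, deviated by -0.33 to -0.02 in controls, -0.06 to 0.16 with LCN13 virus, -0.18 to 0.10 with TSC22D4 virus and -0.01 to 0.42 with both, and none of the 3 passed. Adipocyte markers (5 of 6) deviated by -0.39 to 0.11 in controls and -0.01 to 0.21 with LCN13 virus. With TSC22D4 virus the range was -0.44 to 0.06, with both -0.21 to 0.91. Hepatocyte markers (6 of 6) deviated by -0.57 to 0.20 in controls and -0.07 to 1.21 with LCN13 virus. With TSC22D4 virus the range was -0.50 to -0.26, with both -0.60 to 0.69. Endothelial and pericyte markers (8 of 8) stayed between -0.21 and 0.18. No gene of these lists passed. The part of these and of nerve markers in the Hspb1 and Bag3 levels was not tested. The covariate fits were added after the data were seen and have 7 residual degrees of freedom in place of 8.

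Bag3, a co-chaperone that releases clients from HSP70 and works with small heat shock proteins at the Z-disc, followed the other virus. Its level was 9.64, 9.88 and 9.89 in controls and 9.60, 9.86 and 9.87 with LCN13 virus alone. It was 10.05, 10.14 and 10.09 with TSC22D4 virus alone and 10.16, 9.95 and 10.08 with both. All 6 arrays with TSC22D4 virus lay above the 6 without it, the nearest being animal 30 at 9.95 and control 20 at 9.89.

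No comparison between 2 of the groups passed for Bag3. TSC22D4 shRNA exceeded control by 0.29 (adjusted p = 0.315), and both viruses exceeded control by 0.26 (adjusted p = 0.137) and LCN13 shRNA alone by 0.28 (adjusted p = 0.11). Between the single-virus groups Bag3 was 0.31 higher with TSC22D4 virus (95% interval 0.11 to 0.52, adjusted p = 0.159). These groups received equal amounts of control virus and differed in both target viruses. Averaged over the presence and absence of LCN13 virus, an addition made after the data were seen, Bag3 was 10.08 ± 0.074 (SD, n = 6) with TSC22D4 virus and 9.79 ± 0.134 (SD, n = 6) without. The difference of 0.29 (SE 0.0637, 95% interval 0.14 to 0.43), 1.22-fold, had a limma adjusted p of 0.0382. In this average 4.41% of all genes passed, 1.52% as higher, and 0.798% of genes (185) had all 6 arrays with TSC22D4 virus above the other 6. The amount of control virus also differs here. The 6 arrays with TSC22D4 virus had 2e9 of it or none, and the other 6 had 4e9 or 2e9. Its part was not tested.

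The Bag3 call too depended on single arrays. It was lost in 10 of 12 fits that left out an array, with adjusted p-values up to 0.089 without animal 26, and held without animal 23 (0.0487) and without animal 30 (0.0276). The difference stayed at 0.24 to 0.32. With the red cell score as a covariate it was 0.27 (limma adjusted p = 0.493), with the fibroblast and tendon score 0.29 (0.0936) with the slow fibre score 0.28 (0.0133) and with the macrophage and leukocyte score 0.39 (0.0226). In the same average the macrophage markers Adgre1 (0.35, limma adjusted p = 0.0415) and Mrc1 (0.44, adjusted p = 0.0494) rose. Red cell markers, given above, were higher on the 6 arrays with TSC22D4 virus than on the 6 without, apart from animal 27, which lay just below control 18. In the average by TSC22D4 virus all 3 red cell markers passed as higher.

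**Figure D2:**
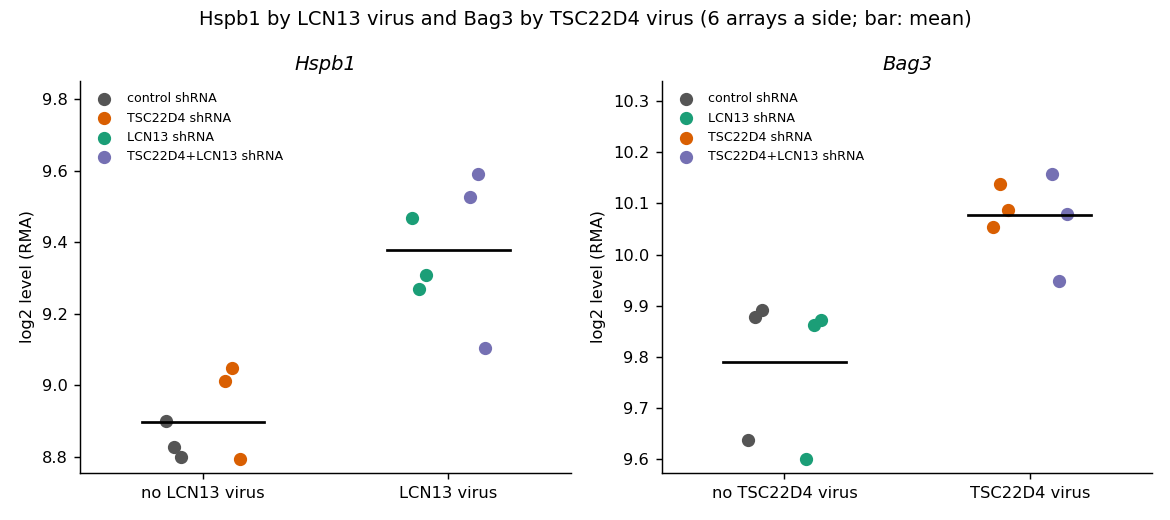
Log2 level of Hspb1 and Bag3 (vertical axes) on 12 arrays, split by the virus that each gene followed (horizontal axis, 6 arrays with it and 6 without). Points are arrays coloured by group and black bars are means of 6. No point of Hspb1 with LCN13 virus falls to the level of those without, and the same holds for Bag3 and TSC22D4 virus.

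Cryab, or alpha B-crystallin, protects desmin and titin and is among the brightest signals of the arrays. It was lowest in the control animals, at 13.01, 13.09 and 13.10. It was 13.14, 13.29 and 13.22 with LCN13 virus, 13.17, 13.29 and 13.16 with TSC22D4 virus, and 13.27, 13.27 and 13.15 with both. The 9 arrays with a target virus thus all lay above the 3 control arrays, as they did for 1.28% of all genes (297). The 3 control arrays were also the only ones with 4e9 of control virus, and the part of that amount was not tested.

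The Cryab differences were small and none passed. They were 0.14 for TSC22D4 shRNA (95% interval 0.02 to 0.26, adjusted p = 0.434), 0.15 for LCN13 shRNA (adjusted p = 0.247) and 0.16 for both viruses (adjusted p = 0.116), each against the same controls. The limma adjusted p for both viruses was 0.0461 with the slow fibre score as a covariate. Cryab did not pass there with the fibroblast and tendon, the red cell or the macrophage and leukocyte score. Another measure split the same arrays, since 12 interferon-induced genes, all measured, deviated by 1.02 to 1.46 in controls and by -0.60 to -0.26 in the other 9 arrays. Its part in the Cryab levels was not tested.

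Hspb7, a small heat shock protein of heart and skeletal muscle that holds filamin C, read 12.14, 12.31 and 12.21 in controls, and 12.26, 12.43 and 12.36 with LCN13 virus. It read 12.26, 12.40 and 12.29 with TSC22D4 virus and 12.37, 12.34 and 12.26 with both. The groups overlapped. Its differences from control were 0.10 with TSC22D4 virus (adjusted p = 0.71), 0.13 with LCN13 virus (adjusted p = 0.418) and 0.10 with both (adjusted p = 0.378).

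Hspb7 and Cryab varied together from animal to animal. Over 12 arrays Pearson's r was 0.91 (permutation p = 7e-05, adjusted over 45 pairs of members 0.00315) and Spearman's rho 0.84 (permutation p = 0.00107, adjusted 0.0481). Without the 2 arrays farthest from the median Hspb7 level r was 0.83, after group means were taken out it was 0.90, and with each array left out in turn it was 0.86 to 0.97. This was the only one of the 45 pairs whose Pearson adjusted p was below 0.05. The median r was 0.05, with 26 pairs above 0 and 19 below, so the 10 genes did not move as one group.

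Other muscle genes were ranked by likeness to each gene of the pair, and those named here were chosen after their values were seen. Among 23184 other genes, the one most like Cryab by Pearson's r over 12 arrays was Hspb6 (HSP20, a further small heat shock protein of muscle) at 0.923, followed by Hspb7 at 0.915. The most like Hspb7 were Tpm3, slow tropomyosin, at 0.95 and Tnni1, slow troponin I, at 0.92, with Cryab next. Tnnc1, slow troponin C, was at rank 7 with 0.883. Myh7, the slow myosin heavy chain, stood at rank 328 with 0.627. Against Cryab the same genes ranked lower, Tpm3 at rank 8 (0.833), Tnni1 at 63 (0.755), Tnnc1 at 157 (0.695) and Myh7 at 2340 (0.418). Hspb6 read 13.70, 13.76 and 13.79 in controls and 13.82 to 13.95 on the other 9 arrays, so it was lowest in the controls, as Cryab was. It was 0.14 above control with TSC22D4 virus (adjusted p = 0.235), 0.11 with LCN13 virus (0.262) and 0.12 with both (0.103), and none passed. Hspb2, which lies beside Cryab in the genome, differed from control by 0.01 with TSC22D4 virus and 0.12 with LCN13 virus, and did not pass in any comparison.

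**Figure D3:**
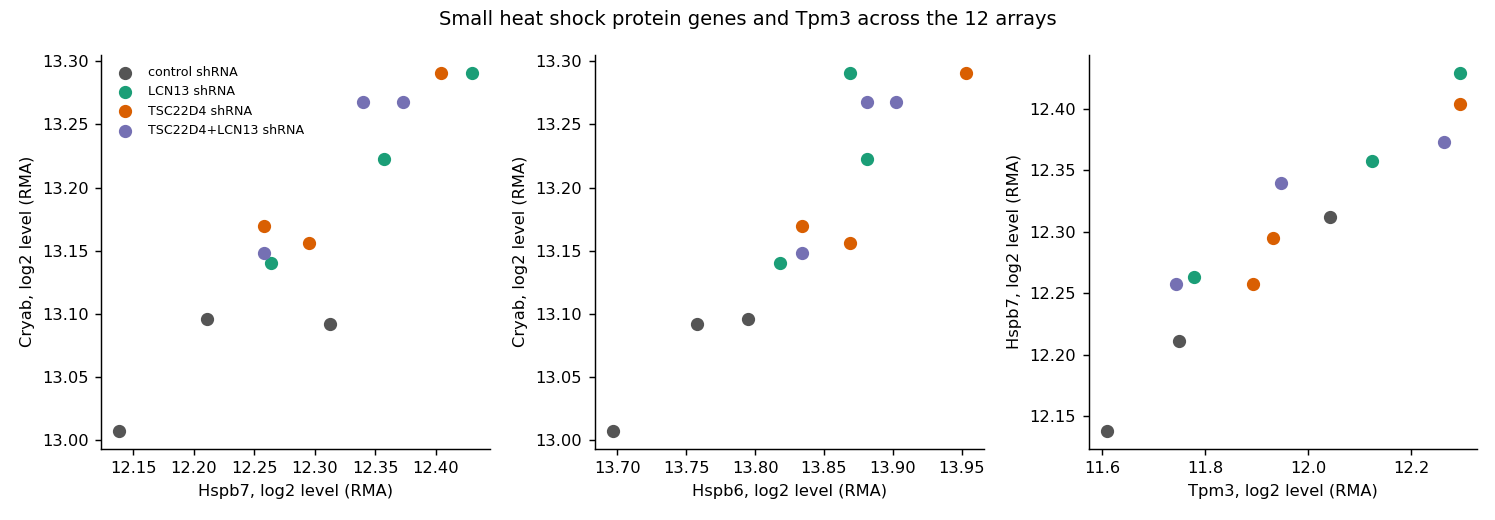
Log2 levels after RMA on both axes for Cryab against Hspb7, Cryab against Hspb6 and Hspb7 against Tpm3, with 1 point per array coloured by group. The points rise together in each panel, with r of 0.91, 0.923 and 0.95, and the 3 control arrays have the lowest Cryab and Hspb6 while the other 9 are mixed along the trend.

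The inducible HSP70 genes Hspa1a and Hspa1b make the protein that stressed cells add to their constitutive HSP70. Hspa1a was 7.31, 8.17 and 7.34 in controls, 7.65, 7.48 and 8.86 with LCN13 virus and 7.00, 8.53 and 7.35 with TSC22D4 virus. With both viruses it was 8.79, 8.91 and 8.36. One animal in each of the first 3 groups (19, 23 and 26) was high, while all 3 animals with both viruses were high.

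Across arrays Hspa1a spanned 3.75-fold, and its spread within groups (pooled SD 0.617) was at the 99.9th percentile of all genes. With both viruses it was 1.08 above control (SE 0.458, 95% interval 0.06 to 2.11), with an adjusted p of 0.219, and 1.06 above TSC22D4 shRNA (adjusted p = 0.464). In fold terms the 95% interval against control ran from 1.04 to 4.30. Hspa1a did not pass in any comparison.

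Hspa1b read 5.98, 6.38 and 6.04 in controls, 5.81, 6.32 and 6.55 with LCN13 virus and 5.87, 6.06 and 6.14 with TSC22D4 virus. With both it read 7.12, 6.51 and 6.19, and animal 29 was the highest of the 12. It was 0.47 above control with both viruses (adjusted p = 0.318) and its within-group SD of 0.328 was at the 99.1st percentile of genes. Pearson's r between the pair was 0.71 over 12 arrays (permutation p = 0.00593, adjusted 0.133), rho 0.76 (permutation p = 0.00638, adjusted 0.144), and r was 0.66 without the 2 arrays farthest from the median of Hspa1a and 0.53 after group means were taken out. The genes are known as near copies of each other. Whether their probe sets tell the transcripts apart was not tested, so the values of each are uncertain to that extent.

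**Figure D4:**
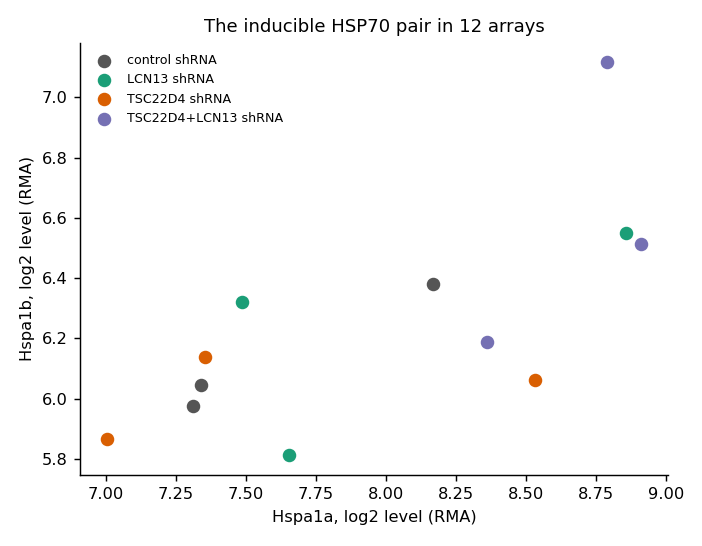
Hspa1b against Hspa1a, both as log2 level after RMA, with 1 point per array and the 4 groups in colour. For Hspa1a, low and high arrays occur in the 3 groups other than TSC22D4+LCN13 shRNA, whose 3 arrays lie at 8.36 and above. For Hspa1b the TSC22D4+LCN13 shRNA arrays, at 6.19 to 7.12, overlap those of control and LCN13 shRNA. The TSC22D4 shRNA arrays lie at 5.87 to 6.14.

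Immediate early genes, which rise fast with handling or activity, were measured beside this (14 of 14). They deviated by -0.01 to 0.09 in controls, -0.23 to 0.11 with LCN13 virus, -0.31 to -0.04 with TSC22D4 virus and -0.15 to 0.41 with both. Their part in the HSP70 levels was not tested.

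Hspa8, the constitutive HSP70, was steady. Its 12 values lay between 13.01 and 13.18, a span of 1.13-fold, with a within-group SD of 0.0456. It was 13.12, 13.02 and 13.02 in controls and 13.13, 13.15 and 13.18 with both viruses. These ranges did not overlap, and the share of all genes parted in this way was not counted. The difference of 0.11 (95% interval 0.02 to 0.19) had an adjusted p of 0.142 and did not pass. Hspa8 differed from control by 0.02 with TSC22D4 virus (adjusted p = 0.934) and 0.08 with LCN13 virus (adjusted p = 0.43).

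Hsph1, the HSP110 that exchanges the nucleotide of HSP70, was 6.38, 6.14 and 6.23 in controls, 6.05, 6.02 and 5.95 with LCN13 virus, 6.56, 6.39 and 6.19 with TSC22D4 virus and 6.42, 6.09 and 6.47 with both. All 3 arrays with LCN13 virus alone lay below the other 9, the nearest being 6.05 against 6.09 in animal 30. The share of all genes with such a separation was not counted. TSC22D4 shRNA exceeded LCN13 shRNA by 0.37 (adjusted p = 0.182) and both viruses exceeded LCN13 shRNA by 0.32 (adjusted p = 0.148), which did not pass. Without animal 30 the latter difference was 0.44 with a limma adjusted p of 0.0413. In that same fit the average by TSC22D4 virus was 0.29 (adjusted p = 0.0429). With all 12 arrays this average was 0.23 (limma adjusted p = 0.147) and did not pass.

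Dnajb1, the HSP40 partner that delivers clients to HSP70, read 5.86 to 6.22 over the 12 arrays. Hsp90aa1, the stress-inducible cytosolic HSP90, read 5.27 to 5.51, at the 47.2nd percentile of gene levels and so beside the array median. No detection call is used here, so it is not known whether these dim signals stood above background. Neither gene differed by more than 0.11 from control in any group, with adjusted p-values from 0.609 for Hsp90aa1 with TSC22D4 virus upwards.

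**Figure D5:**
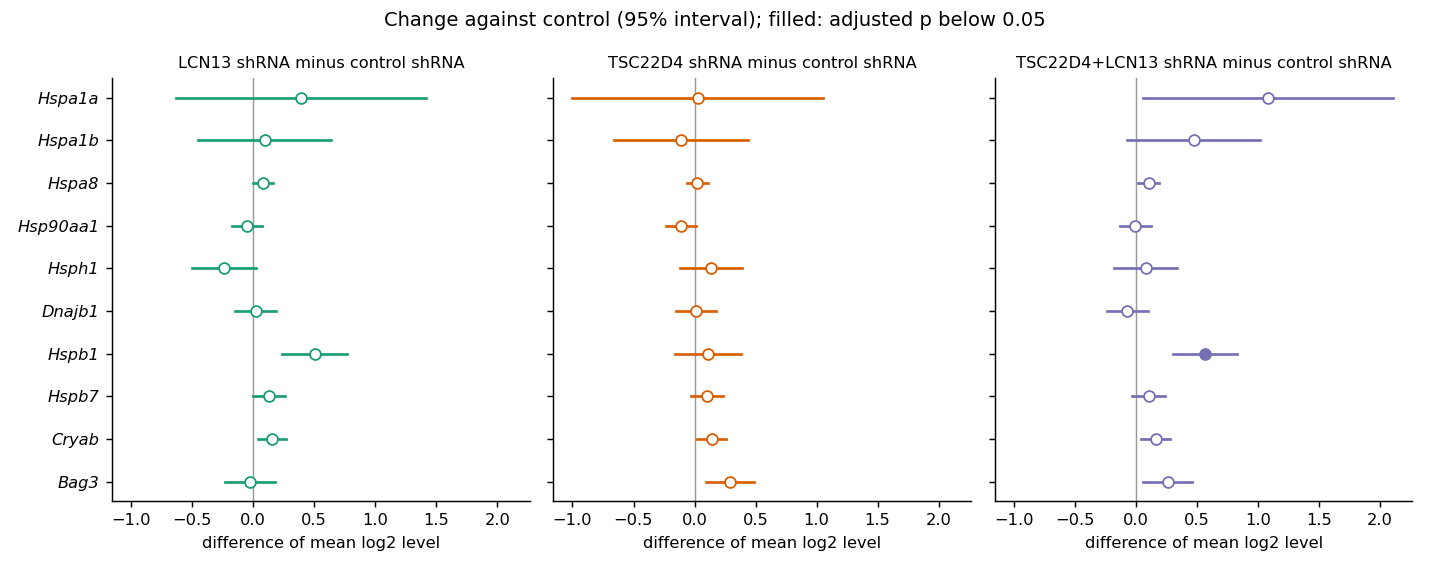
Difference in mean log2 level from control (horizontal axis) for each of the 10 genes in LCN13, TSC22D4 and TSC22D4+LCN13 shRNA mice, with 95% intervals from limma and a filled point where the adjusted p was below 0.05. The interval of Hspb1 with both viruses, 0.30 to 0.83, belongs to the one difference that passed, and those of Hspa1a are the widest of the 10 genes.

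The remaining comparisons passed no member in limma. Among TSC22D4 shRNA, LCN13 shRNA and both viruses against control, the counts were 0, 0 and 1 of 10, where 0.336%, 0.85% and 4.34% of all genes passed. At an unadjusted p below 0.05 they were 2, 2 and 5. The share of all genes at that unadjusted level was not counted, so these and the later unadjusted counts cannot be set against it. The median difference of the 10 members was 0.06, 0.09 and 0.14, against medians of all genes of 0.00, 0.00 and -0.01, with 8, 7 and 8 members above 0. Both viruses against TSC22D4 shRNA passed 0 members (4 at unadjusted p below 0.05) and 0% of all genes. Both viruses against LCN13 shRNA passed 0 (2 unadjusted), with 4.21% of genes passing, and TSC22D4 against LCN13 shRNA passed 0 (3 unadjusted), with 0.125% passing.

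Whether the effects of the viruses add up on the log2 scale was asked by the interaction, which sets what TSC22D4 virus added on top of LCN13 virus against what it added to control virus alone. It passed 0 members, 0 at an unadjusted p below 0.05, with a smallest adjusted p of 0.577 for Hsp90aa1, while 0.125% of all genes passed. The test for any difference among the 4 groups passed 0 members, with Hspb1 at an adjusted p of 0.0514, while 3.33% of genes passed. Hspb1 passed that test with genes below the median level left out (0.0229), with trend and robust options (0.0251) and with array weights (0.0448), all by limma.

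The wider chaperone system was described with 96 further genes, of which 94 were measured and Hsp90ab1 and Hsf1 were not analysed here. With both viruses against control 1 gene rose and 7 fell, where 1.72% of all genes rose and 2.62% fell. Against LCN13 shRNA 0 rose and 5 fell, where 1.32% of all genes rose and 2.9% fell. In the other comparisons between groups and in the interaction none of the 94 passed. In the average by LCN13 virus, 6 arrays against 6, none passed either. In the average by TSC22D4 virus 2 rose and 6 fell, where 1.52% of all genes rose and 2.89% fell. The median difference with both viruses was -0.03, beside -0.01 for all genes.

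Among 18 further J-domain proteins 3 fell with both viruses against control. Dnajc21, which works in ribosome maturation, fell by 0.41 (adjusted p = 0.0266), Dnaja2, an HSP70 partner of the cytosol, by 0.16 (adjusted p = 0.0279), and Dnajb12 of the endoplasmic reticulum membrane by 0.27 (adjusted p = 0.0442). Of the 7 other small heat shock proteins Hspb9 fell by 0.23 (adjusted p = 0.00438), from a mean of 5.87 to 5.64, which is close to the array median. The other HSP70 and HSP110 genes gave the single rise, Hspa12a, at 0.29 (adjusted p = 0.0497).

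Of 11 clients and partners at the Z-disc, Ttn, the giant titin that BAG3 and small chaperones serve, fell by 0.12 (adjusted p = 0.0242) and Synpo2, which links BAG3 to vesicle formation, by 0.21 (adjusted p = 0.0335). Against LCN13 shRNA, Ttn fell by 0.12 (adjusted p = 0.027), Synpo2 by 0.26 (adjusted p = 0.018) and Myot, or myotilin, by 0.09 (adjusted p = 0.0464). Of 14 genes of endoplasmic reticulum stress Atf4, the main transcription factor of the integrated stress response, fell by 0.24 against control (adjusted p = 0.00962) and by 0.28 against LCN13 shRNA (adjusted p = 0.00785). Hspb9 fell by 0.18 against LCN13 shRNA (adjusted p = 0.0139).

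In the comparisons between groups none passed of 10 chaperonins, 21 cochaperones, 4 heat shock factors with their binding protein and 2 further HSP90 genes. The closest were Hsbp1, which binds HSF1, at 0.20 with both viruses against control (adjusted p = 0.0535), Hsf4 at -0.27 (adjusted p = 0.0604) and the chaperonin subunit Cct7 at -0.37 (adjusted p = 0.0686). Among cochaperones Stip1, which bridges HSP70 and HSP90, was 0.29 higher in TSC22D4 than in LCN13 shRNA (adjusted p = 0.0973). In the average by TSC22D4 virus Stip1 rose by 0.21 (adjusted p = 0.0408) and Hsbp1 by 0.14 (adjusted p = 0.0483). The 6 that fell there were Dnaja2, Dnajc10, Dnajc21, Hspb9, Synpo2 and Atf4, with adjusted p-values from 0.0088 for Atf4 to 0.0459 for Dnajc21.

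In the comparisons of both viruses with control or LCN13 shRNA, leaving out arrays one at a time took away the call of Hspa12a in 11 of 12 fits, of Dnajb12 in 9, of Synpo2 against control in 8, of Dnajc21 in 5, of Dnaja2 in 4 and of Ttn against control in 3. It took away that of Myot in all 12, and against LCN13 shRNA that of Ttn in 4 and those of Synpo2 and Hspb9 in 1 each. Those of Atf4 and Hspb9 against control held in all 12, with highest adjusted p-values of 0.0453 and 0.0201 by limma. In 12 other settings they were lost in 4 and 2. The calls in the average by TSC22D4 virus were not tried with arrays left out.

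A rule applied to all genes above the median level asked which were most like the mean deviation of the 10 members over 12 arrays. Niban2 (Pearson's r 0.887), Rab15 (0.886), Slc25a39 (0.883), Glcci1 (0.87) and Arhgap42 (0.858) came first. The median size of r over genes was 0.286. The deviations were not scaled, so Hspa1a (range 1.91) and Hspa1b (1.3) weigh more in the mean than Hspa8 (0.18). Likeness to this mean is therefore not likeness to each of the 10 genes, which did not move as one group.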

How the data were processed

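Total RNA of gastrocnemius from 12 mice was hybridised with biotin label to 1-colour Affymetrix arrays. The authors deposited log2 levels of 25206 probe sets made with RMA, per the submitters' processing notes. How probe sets were defined, which RMA version and genome build served, and whether signals were detected is not stated in the labels or the table. Of these probe sets 23185 (92%) carried 1 gene symbol in the supplied annotation, 1 probe set per gene, and the 2021 others (8.02%) entered only as an alternative. All value columns were matched to a sample by name, and 0 were not.

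From these values 4 group means per gene were estimated by limma 3.58.1 (lmFit, eBayes; R 4.3.3) from the 12 arrays, with 8 residual and 1.69 prior degrees of freedom, no filter and no trend. Tests were two-sided, with Benjamini-Hochberg adjustment over 23185 genes in each comparison. Animals are numbered separately in each group and pair no samples. The labels and headers name no batch. The number of arrays, 3 per group, limits the precision. Correlations used 100000 permutations (Python 3.11.15, numpy 2.4.6). The limma steps were tested on simulated data with known changes.

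The 10 members, the other gene lists and the tests were chosen with earlier results of these data known. All members are named. Of each other chaperone list, up to 4 genes that passed are named, otherwise up to 2 of smallest p, as are the 5 genes most like the members' mean. A list score is the mean deviation of its genes from their 12-array means. Settings tried as alternatives were unnamed probe sets included, probe sets averaged per gene, genes above the median level, trend and robust options, quantile normalization, centring, array weights, the compared groups alone and each array left out. Averages over 6 against 6 arrays and covariate fits were added after the data were seen.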

Additional observations from a re-analysis of the deposited data

How the results depend on the processing

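Counts of members past the threshold were small and moved by 1 with several settings. Over the 12 fits that each left out an array, the count was 0 to 1 for LCN13 shRNA against control, for both viruses against control, for both viruses against LCN13 shRNA, for any difference among the groups and for the LCN13 virus averaged 6 against 6. It was 0 to 2 for the TSC22D4 virus averaged 6 against 6. With genes above the median level it was 1 for LCN13 shRNA against control (Hspb1, limma adjusted p = 0.047) and 1 for any difference, which was also 1 with trend and robust options, with array weights and with the slow fibre score. For both viruses against control it was 0 with the compared groups alone and with the fibroblast and tendon, the red cell or the macrophage and leukocyte score, and 2 with the slow fibre score. The slow fibre score gave 1 (Bag3) for both viruses against LCN13 shRNA. The 6 against 6 averages in place of the comparisons with control gave 1 each. In those averages the count was 0 for TSC22D4 virus with the fibroblast and tendon or red cell score, and 0 for LCN13 virus with the fibroblast and tendon, slow fibre or macrophage and leukocyte score. The causes were not tested, and some settings use fewer arrays or genes. No called value changed sign. Of the members' values under all settings 2322 stayed on the same side of the threshold, 13 came to pass and 35 ceased to pass. Values that never passed were not followed for sign. All probe sets, the mean of a gene's probe sets, quantile normalization and centring moved no count. The mean of a gene's probe sets could change nothing, because each gene had 1 probe set. Quantile normalization and centring could change little, because RMA had already made the distributions of the arrays equal. No paired analysis was possible because animal numbers are not shared between groups. Dim signal may limit Hsp90aa1, at the 47.2nd percentile of gene levels, Dnajb1 (62.5th), Hsph1 (65.9th) and Hspa1b (66th). No detection call is used to decide this.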
